A study of Homo sapiens with 4 samples.

Results

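The genes described here encode the replication-dependent histones, 66 genes with 68 transcript records among the 53209 records of each deposited file. They were chosen by gene symbol alone, as the records whose current RefSeq symbol is H1-1 to H1-6 or begins with H2AC, H2BC, H3C or H4C followed by a number. No FPKM value (fragments relative to transcript length and to all mapped fragments) decided membership, but the group was proposed with earlier results of these libraries known, so the differences between arms below are a description of the members and support no claim about the group. Of the 69 symbols in the RefSeq table with such names, 3 (H2AC19, H3C15 and H4C14) have no FPKM value analysed here.

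The libraries come from a miRNA pull out in DU-145, a human prostate carcinoma cell line that is one established line throughout. Cells of both arms received 60 nM of a miR-28-5p duplex by lipofection and ultraviolet light of 365 nm the day after, and their total RNA went onto streptavidin beads. In the miR-28BIO arm (2 libraries) the duplexes were a mix of 2 biotin-tagged forms of miR-28-5p with a thiouridine that crosslinks to neighbouring RNA, and in the miR-28CT arm (2 libraries) the duplex carried no biotin, so that its eluate is background RNA. Both arms therefore carried excess miR-28-5p, and the comparison asks which RNAs came off the beads with the tagged miRNA rather than what the miRNA does to the cells. The paper's methods put a set mass of total RNA onto the beads, and FPKM are relative within a library. In such eluates, a lower share of an RNA in the cells and a lower share held by the beads cannot be told apart.

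Replication-dependent histone mRNAs are made in bulk in S phase, when new chromatin needs the core histones H2A, H2B, H3 and H4 and the linker histone H1. Most of these genes have no intron, and their mRNAs end in a conserved stem-loop instead of a poly(A) tail. The stem-loop binding protein SLBP holds that end, and U7 snRNA with its LSM10 and LSM11 proteins guides the cut that makes it. Many H2A and H2B genes stand head to head and share the region between their starts.

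That architecture is visible in the annotation of the members. The files place 56 records in the clusters of chromosome 6, 11 on chromosome 1 and 1 on chromosome 12 (hg38). The stem-loop, searched by its consensus on the transcribed strand, ended within the last 100 bases of 64 of the 68 records, against 0.0301% of 252835 GENCODE transcripts. The 4 records without it there were H2BC21, whose record runs to 2223 bases, and the spliced records of H2BC5, H2BC12 and H2BC18.

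Among the H2A and H2B records, 12 pairs diverged from a shared region of 223 to 346 bases. The regions of 2 pairs are shown because their H2B genes stood at opposite ends of the pairs in the comparison below: H2BC11 was the H2B gene farthest above its neighbour, and H2BC17 was the H2B gene below its neighbour. The first, chr6:27132797-27133037, lies between the starts of H2BC11 on the minus strand and H2AC11 on the plus strand. The second, chr6:27893186-27893424, lies between H2AC17 on the minus strand and H2BC17 on the plus strand. Both lie outside the deposited records of these genes, are given on the plus strand of hg38 from 5′ to 3′, and carry capitals at the CCAAT box, at the TATA box letters TATAAA and at the octamer ATTTGCAT in either orientation.
H2AC11/H2BC11: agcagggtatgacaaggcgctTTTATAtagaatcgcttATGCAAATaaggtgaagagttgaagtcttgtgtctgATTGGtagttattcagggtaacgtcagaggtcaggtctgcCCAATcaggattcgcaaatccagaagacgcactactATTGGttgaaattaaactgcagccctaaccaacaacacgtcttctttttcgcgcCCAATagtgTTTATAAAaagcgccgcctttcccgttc
H2AC17/H2BC17: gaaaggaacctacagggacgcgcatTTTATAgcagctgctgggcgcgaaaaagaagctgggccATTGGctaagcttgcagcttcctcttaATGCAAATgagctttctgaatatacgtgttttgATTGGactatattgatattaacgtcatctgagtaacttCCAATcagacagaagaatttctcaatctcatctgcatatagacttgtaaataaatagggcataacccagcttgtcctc
The H2AC11/H2BC11 region held 4 CCAAT, 3 TATAAA and 1 octamer match, and the H2AC17/H2BC17 region held 3, 1 and 1. In TTTATAAA the matches on the 2 strands overlap. RefSeq promoter windows of 300 bases (GRCh38.p14) matched 61 of the 66 genes, with 65 windows, and none matched H2AC12, H3C11, H3C12, H4C1 or H4C3. The octamer was in 15 of 20 windows of H2B genes and 11 of 15 of H2A genes, in 1 of 12 of H3 genes and in 0 of 12 of H4 and 0 of 6 of H1 genes, against 1.77% of all 35116 windows. The H3 window with it was a window of H3C4, whose deposited record starts at the same base as that of H2AC7. Another window of H3C4 lacked it. CCAAT was in 56 of the 65 member windows against 34.6% of all, but in 3 of 12 windows of H4 genes. TATAAA was in 43 of the 65 against 11.5% of all. H2BC10, the other H2B gene that stood high in the miR-28BIO arm, had CCAAT and the octamer in its window.

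Values below are FPKM divided by a factor for each library (the median ratio over transcripts above 0 in all libraries), called scaled FPKM. Differences are of log2(scaled FPKM + 0.1), miR-28BIO minus miR-28CT. A record was tested where its mean scaled FPKM was at least 0.5 and its status was OK in all 4 libraries, which left 15587 transcripts. All 68 members had status OK, and 51 records of 50 genes passed. Another 13 records were listed at 0 in every library, those of H2AC1, H2AC18, H2BC1, H2BC3, H2BC9, H3C3, H3C6, H3C14, H4C5, H4C6, H4C7 and H4C15 and the spliced record of H2BC18. The 4 records above 0 that did not pass were H1-1, H1-6, H3C7 and H4C9. Listed zeros are not firm absences, since KRT18, a keratin that epithelial cells use, was itself listed at 0 in both libraries numbered 1 and at 98.4 and 34.4 in those numbered 2. Other markers of the line were present, with KRT19 at 20.2 to 92.2 and VIM at 135 to 249, and KLK3 was listed at 0 throughout.

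On this scale, summed histone records were lower in the miR-28BIO eluates and higher in the libraries numbered 2. Their summed scaled FPKM was 4548 in miR-28CT replicate 1, 32417 in miR-28CT replicate 2, 1998 in miR-28BIO replicate 1 and 12166 in miR-28BIO replicate 2. The miR-28BIO library of each number held less than the miR-28CT library of the same number, 2.28 times less for number 1 and 2.66 times less for number 2, while miR-28BIO replicate 2 still held more than miR-28CT replicate 1. The gap between numbers was larger than the gap between arms, at 7.13-fold within miR-28CT and 6.09-fold within miR-28BIO. These sums depend on the scaling. With libraries scaled to the same FPKM total they were 7120 and 7617 in miR-28CT and 5443 and 12624 in miR-28BIO. The gap between numbers was then 1.07-fold within miR-28CT and 2.32-fold within miR-28BIO, and the miR-28BIO library was 1.31 times lower in number 1 but 1.66 times higher in number 2.

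**Figure D1:**
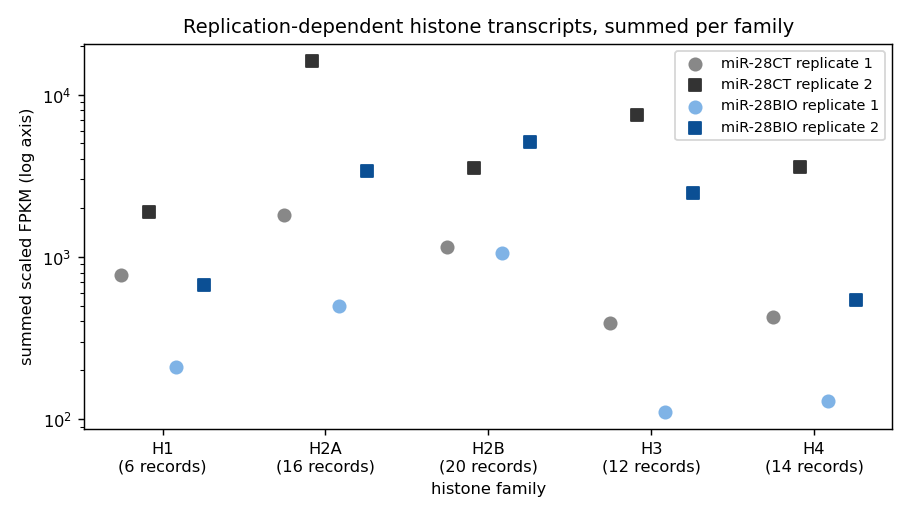
Summed scaled FPKM (log axis) of all records of each histone family in the 4 libraries, circles for replicates 1 and squares for replicates 2. The squares lie above the circles of the same arm in every family, and the miR-28BIO points lie below the miR-28CT points of the same number except for H2B in the libraries numbered 2, at 5128 against 3513.

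Record by record, 45 of the 51 tested members had a lower mean log2 value in miR-28BIO and 6 a higher one, with a median difference of -1.92 beside -0.08 over all tested transcripts. The same-total scaling shifts the arm difference of every record by 1.47 and its gap between numbers by -2.74 in miR-28CT and -1.39 in miR-28BIO, apart from the pseudocount, so it turns the sign of the smaller differences below. With it the median was -0.45 beside 1.21, and 32 members were below 0 and 19 above. The miR-28BIO value was below the miR-28CT value of the same number in both numbers for 44 of the 51, where 30.5% of all tested transcripts were, and above it in both for 5, where 24.2% were. Under the same-total scaling these counts were 21 of the 51 (2.98% of all) and 10 (61% of all). Both miR-28BIO libraries lay below both miR-28CT libraries for 12 members (12% of all tested transcripts) and above them for 2 (11.5%). Under the same-total scaling, with the filter applied on that scale (16309 transcripts), these counts were 8 (1.67%) and 8 (22.6%). The 8 above include H1-6, which is not among the 51.

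No member passed limma's test of the arms at a Benjamini-Hochberg adjusted p of 0.05 over all 15587 transcripts, in either direction, and neither did any other transcript (0% called). In this fit, which has no block for the replicate number, 1 member was lower at an unadjusted limma p under 0.05 (1.49% of all tested) and 0 were higher (2.09%). The fit with that block is given in the closing section. With 2 libraries an arm, an exact two-sided permutation test of one value cannot go below p = 0.333. The size of the median shift rests on which libraries are compared: it was -3.22 without miR-28CT replicate 1 and -3.18 without miR-28BIO replicate 2, but -0.42 without miR-28CT replicate 2 and -0.38 without miR-28BIO replicate 1.

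**Figure D2:**
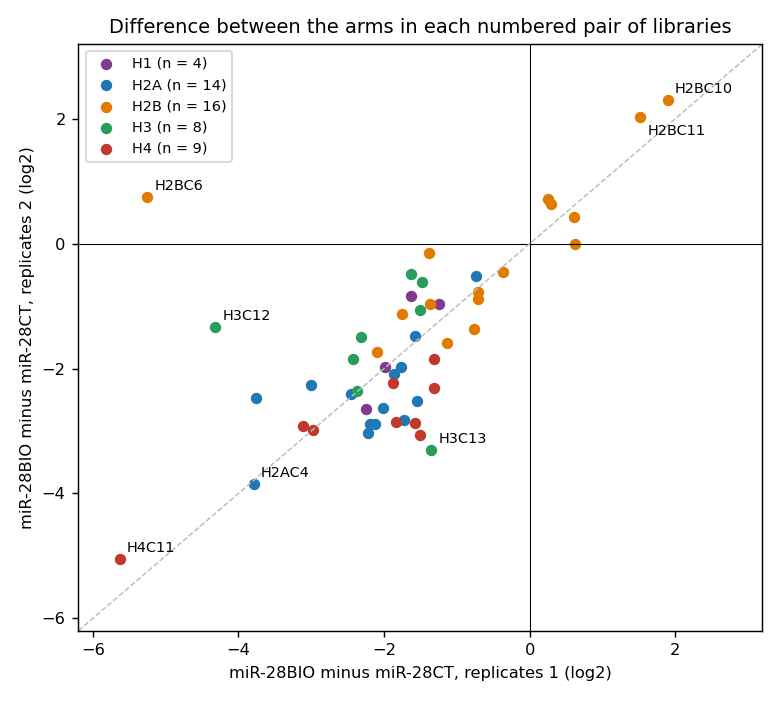
Difference between arms (log2) for the 51 tested members, libraries numbered 1 on the horizontal axis and numbered 2 on the vertical axis, coloured by family; the dashed line marks equal differences. The region below 0 on both axes holds 44 records, and the records above 0 on both axes are all H2B.

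Transcript length moved with both gaps, though not evenly across the classes. The tested members were short, with a median of 469 bases. Among the 168 other tested transcripts of at least 400 and under 600 bases, the median difference between arms was -1.04, and 64.3% were lower in miR-28BIO in both numbers. In the same class, 29 of the 35 members were lower in both numbers, with a median of -1.87. Among the 7364 other transcripts of 3000 bases or more, the median was 0.10 and 21.4% were lower in both. Among the 312 other transcripts under 300 bases it was -0.46, and 18.9% were lower in both. Median gaps of other transcripts between numbers in miR-28CT and miR-28BIO were 1.26 and 1.13 from 400 to under 600 bases. They were -0.24 and -0.20 from 3000 bases, and 1.49 and 3.24 under 300. After each library was centred within 7 length classes on the transcripts that are no member, the median of the members was -0.88, and 34 of the 51 were lower in both numbers, against 33.1% of all tested transcripts. How much of the members' difference goes with their length was not tested further.

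**Figure D3:**
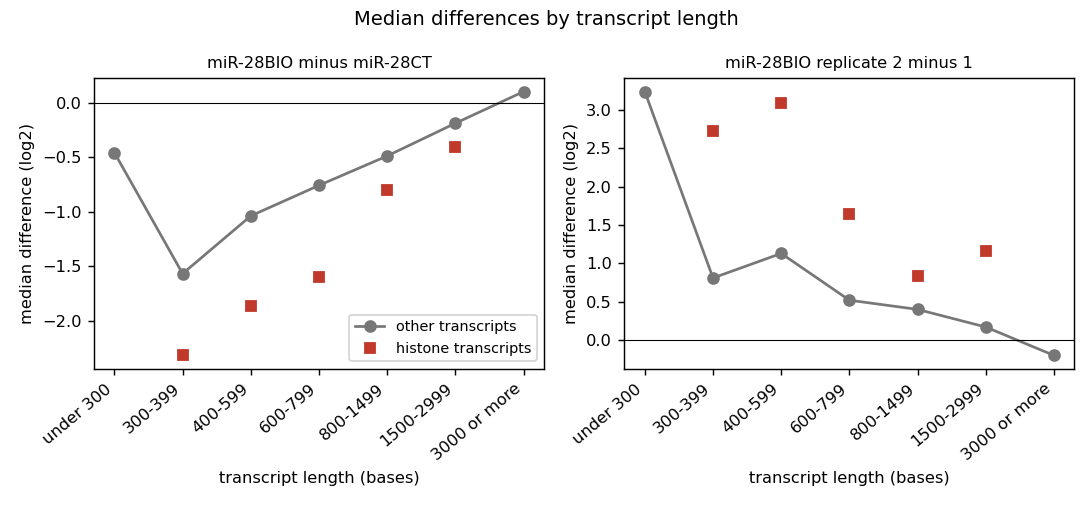
Median log2 difference by transcript length class for other tested transcripts (grey line) and histone records (red squares), between arms on the left and between the miR-28BIO libraries numbered 2 and 1 on the right. In both panels the histone medians lie farther from 0 than those of other transcripts of the same class, at -1.87 against -1.04 on the left and 3.09 against 1.13 on the right from 400 to under 600 bases.

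All 5 family medians were below 0, and H2B lay closest to it. Median differences were -1.60 in H1 (4 records), -2.38 in H2A (14), -2.02 in H3 (8) and -2.29 in H4 (9), and all 35 records outside H2B were lower in miR-28BIO in both numbers, or 29 of the 35 after centring within length classes and 21 under the same-total scaling. Without miR-28CT replicate 2 or miR-28BIO replicate 1, the H1 median was -0.95 and -0.92, and the H2A median was -0.72 and -0.78. In H2B the median was -0.75 over 16 records, with 9 lower and 5 higher in both numbers (30.5% and 24.2% of all tested transcripts). Under the same-total scaling these counts were 0 and 9 (2.98% and 61% of all), so the 9 higher, 56.2% of the 16, were near the share of all. After centring within length classes they were 5 lower, where 33.1% of all were, and 7 higher. The H2B median was -0.01 without miR-28CT replicate 2 and 0.06 without miR-28BIO replicate 1. Under the same-total scaling the medians were 0.69 for H2B, -0.91 for H2A, -0.56 for H3 and -0.82 for H4, all below that of all tested transcripts. For the same 4 H1 records the median was then -0.13, and it was 0.24 when H1-6, which passed the filter under that scaling alone, was included at 2.77. After centring within length classes the family medians were -0.83 for H1, -1.34 for H2A, 0.12 for H2B, -1.08 for H3 and -1.28 for H4, so the sign of the H2B median depended on the scaling, on the treatment of length and on single libraries.

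The linker histones bind DNA where it enters and leaves the nucleosome. H1-4 had a small gap between numbers, with 362 and 528 scaled FPKM in miR-28CT and 91.5 and 135 in miR-28BIO, which is 445 ± 118 against 113 ± 30.8 (SD, n = 2). Its arms did not overlap, and its log2 difference of -1.97 (SE 0.73) was nearly the same in each number. Under the same-total scaling it had 566 and 124 against 249 and 140, a difference of -0.50. There the arms overlapped, and miR-28BIO was the higher in number 2. After centring within length classes the difference was -1.20 with the arms apart. H1-5 stood at 165 and 575 in miR-28CT and at 34.7 and 91.8 in miR-28BIO, a difference of -2.45 (SE 0.99) with arms that did not overlap either, or -0.98 under the same-total scaling. H1-2 stood at 241 and 760 against 77.6 and 425, so that miR-28BIO replicate 2 exceeded miR-28CT replicate 1, and its difference was -1.23 (SE 1.29), or 0.24 under the same-total scaling. The difference of H1-2 was -0.38 without miR-28CT replicate 2 and 0.00 without miR-28BIO replicate 1. H1-3, the lowest of the tested linker genes, had 10.6 and 32.5 against 4.40 and 16.5, with a difference of -1.11, or 0.35 under the same-total scaling. H1-1 and the testis gene H1-6 were below 1 in every library.

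H2A pairs with H2B in the dimers that flank the H3-H4 tetramer. H2AC20 had 528 and 2592 scaled FPKM in miR-28CT and 115 and 349 in miR-28BIO, a difference of -2.54 (SE 1.36), or -1.07 under the same-total scaling. The difference of H2AC20 was -1.37 without miR-28CT replicate 2 and -1.74 without miR-28BIO replicate 1. H2AC11 had 249 and 2248 against 45.0 and 426, a difference of -2.43 (SE 1.79), which was -0.82 without miR-28CT replicate 2 and -0.80 without miR-28BIO replicate 1. H2AC13 had 107 and 2371 against 26.4 and 384, a difference of -2.32 (SE 2.21), which was -0.07 without miR-28CT replicate 2 and -0.39 without miR-28BIO replicate 1. In each of the 3 genes the miR-28BIO value of a number was below the miR-28CT value of that number, with log2 differences from -2.89 to -2.02, but only H2AC20 kept the arms apart. H2AC4 had the largest difference of the family, -3.82 (SE 2.59), from 19.2 and 660 to 1.29 and 45.6, and without the same libraries it was -1.25 and -1.30. H2AC25, on chromosome 1, followed with -3.11 from 4.06 and 91.4 to 0.208 and 16.5, and it was -0.87 and -0.23 without them and -2.23 with a pseudocount of 1. H2AC17, at -0.62, had 206 and 1421 against 123 and 999, and was 0.85 under the same-total scaling. H2AC13 and H2AC14 share 67.4% and 72.6% of their 50-base words with other members, and H2AC20 shares 26.8%, so how reads were split between such copies is uncertain.

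H3 and H4 form the central tetramer. H3C2 had the highest mean of all members, with 166 and 2556 scaled FPKM in miR-28CT and 58.6 and 1225 in miR-28BIO, a difference of -1.28 (SE 2.27) that was 0.19 under the same-total scaling, 0.71 without miR-28CT replicate 2 and 0.92 without miR-28BIO replicate 1. H3C10 had 110 and 2662 against 21.1 and 519, a difference of -2.37 (SE 2.42) that was -0.04 and -0.05 without these libraries. H3C13 had 13.3 and 1012 against 5.17 and 102, a difference of -2.33 (SE 2.73) that was 0.81 and -0.19 without them. Its miR-28CT values differ most between numbers among members above 0 in every library. No H3 gene kept the arms apart, since miR-28BIO replicate 2 exceeded miR-28CT replicate 1 in all 8. The spliced record of H3C4, among these 8, spans the record of H2AC7. How reads were split between H3C4 and H2AC7 is uncertain, which also bears on the pair H2AC7/H2BC7 below. For the family median, leaving out miR-28CT replicate 2 or miR-28BIO replicate 1 turned the sign to 0.31 and 0.12.

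Among H4 genes, H4C2 had 82.0 and 1064 against 28.7 and 126, a difference of -2.29 (SE 1.62), which was -0.42 without miR-28CT replicate 2 and -1.22 without miR-28BIO replicate 1. H4C3 had 93.3 and 1010 against 11.8 and 127, a difference of -2.98 (SE 1.81) that was nearly equal in each number, and -1.24 and -1.27 without those libraries. H4C8 had 128 and 431 against 51.8 and 86.6, a difference of -1.81 (SE 0.88) without overlap of the arms, or -0.91 without miR-28CT replicate 2. The difference of H4C8 was -0.34 under the same-total scaling and -0.80 after centring within length classes, with overlap in both. H4C1 had 11.4 and 252 against 1.22 and 33.3, a difference of -3.02, or -0.77 without miR-28CT replicate 2 and -0.68 without miR-28BIO replicate 1. H4C11 gave the lowest value of all members, -5.34 (SE 1.77, limma adjusted p = 1.00), from 4.87 and 39.9 to a listed 0 and 1.11. Its size depends on the pseudocount, at -3.41 with 1 and -7.04 with 0.01, and it was the 1 member below 0.05 before adjustment. H4C11 and H4C12 share 91.2% and 91.8% of their 50-base words with other members, and H4C12 had 5.30 and 133 against 1.71 and 18.1.

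On the reported scale, all tested records with a difference above 0 were H2B. H2BC10 (older name HIST1H2BI, chr6:26272976-26273412, plus strand) had 43.1 and 78.7 scaled FPKM in miR-28CT and 161 and 389 in miR-28BIO, which is 60.9 ± 25.2 against 275 ± 161 (SD, n = 2). Both miR-28BIO libraries lay above both miR-28CT libraries, with a difference of 2.10 (SE 0.78, limma adjusted p = 1.00) that was 1.90 in number 1 and 2.30 in number 2. It was 3.57 under the same-total scaling and 3.14 after centring within length classes, with the arms apart in both. H2BC11 (older name HIST1H2BJ, chr6:27132316-27132796, minus strand), the H2B gene with the highest mean, had 89.2 and 680 against 256 and 2775. Its arms overlapped because miR-28CT replicate 2 exceeded miR-28BIO replicate 1, and its difference was 1.77 (SE 1.84), 1.52 and 2.03 in numbers 1 and 2, or 3.24 under the same-total scaling. The difference of H2BC11 was 0.34 without miR-28CT replicate 1 and 0.06 without miR-28BIO replicate 2, and that of H2BC10 ranged from 1.47 to 2.74 when any one library was left out. These are the 2 members on the study's list of captured transcripts, which was made on these libraries and is not independent evidence of their direction.

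Among the other exceptions, H2BC7 had 22.0 and 17.8 against 33.6 and 24.0, a difference of 0.52 (SE 0.46) with arms that did not overlap, or 1.98 with overlap under the same-total scaling. H2BC13 had 109 and 282 against 130 and 465, a difference of 0.49, or 1.96 under that scaling. The unspliced record of H2BC5 had 104 and 400 against 127 and 623, a difference of 0.46, or 1.93 under it. The last 2 were below 0 when miR-28CT replicate 1 or miR-28BIO replicate 2 was left out, at -0.17 and -0.42 for H2BC13 and -0.48 and -0.68 for H2BC5. Other abundant H2B genes lay with the rest of the group. H2BC4 had 374 and 519 against 145 and 266, a difference of -1.17 (SE 0.83) that was 0.30 under the same-total scaling. H2BC17 had 130 and 862 against 30.2 and 257, a difference of -1.92 (SE 1.59), which was -0.53 without miR-28CT replicate 2 and -0.37 without miR-28BIO replicate 1. H2BC8 had 23.1 and 57.1 against 10.4 and 18.9, a difference of -1.37 with arms that did not overlap, or 0.10 with overlap under the same-total scaling.

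The head to head pairs set genes with a shared upstream region side by side. Of the 11 pairs with both genes tested, the H2B gene had the higher arm difference in 10, in both numbers each time, and the median of H2B minus H2A was 1.68 on the log2 scale. In H2AC11/H2BC11 it was 4.20, the largest, with H2AC11 at -2.43 and H2BC11 at 1.77. In H2AC13/H2BC13 it was 2.81 and in H2AC7/H2BC7 2.50, and in these 3 pairs the genes lay on opposite sides of 0 under the reported scaling. In H2AC17/H2BC17, the exception, it was -1.30, with H2AC17 at -0.62 and H2BC17 at -1.92. Single libraries moved the pair H2AC13/H2BC13. Without miR-28CT replicate 1 these 2 genes were at -4.53 and -0.17, and without miR-28BIO replicate 2 at -4.25 and -0.42, both below 0. Without miR-28CT replicate 2 they were at -0.07 and 1.20, and without miR-28BIO replicate 1 at -0.39 and 1.41. A scaling of whole libraries cancels in these contrasts apart from the pseudocount, but transcript length does not cancel in H2AC20/H2BC21 and H2AC12/H2BC12, whose H2B records are the longer. H2BC10 has no H2A neighbour within 500 bases of its start.

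**Figure D4:**
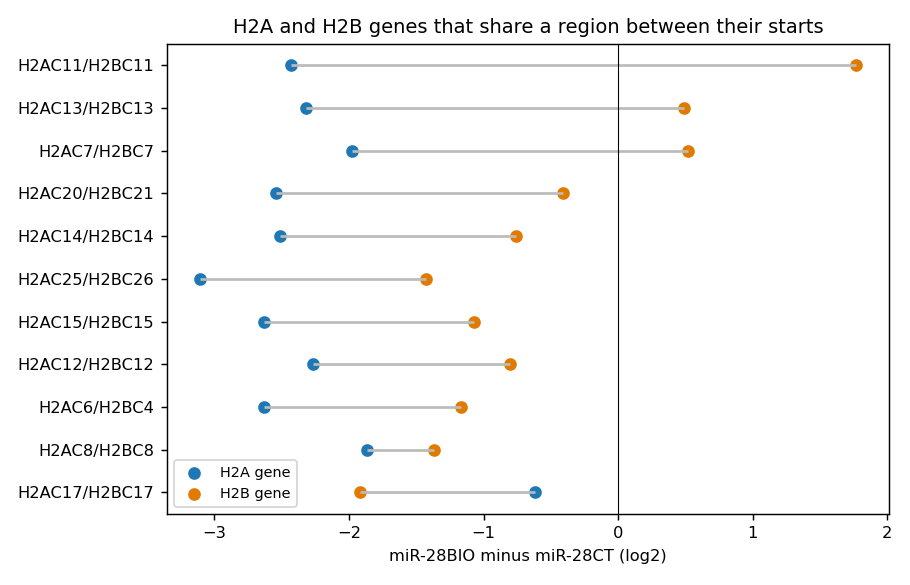
Difference between arms (log2) of the H2A gene (blue) and the H2B gene (orange) of 11 divergent pairs, ordered by H2B minus H2A. The H2B point lies to the right in 10 pairs, by 4.20 in H2AC11/H2BC11, and to the left in H2AC17/H2BC17; the same-total scaling moves points of both colours to the right.

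The difference between numbers also varied among members, and its size depends on the scaling. On the reported scale, in 40 of the 51 tested members the library numbered 2 was at least 2-fold above the library numbered 1 in both arms, where 18.7% of all tested transcripts were, and after centring within length classes this held for 25 (16.6% of all). Under the same-total scaling it held for 15 (5.49% of all), and the median log2 gap of the tested members was 0.00 in miR-28CT and 1.31 in miR-28BIO, beside -2.34 and -1.18 over all tested transcripts. On the reported scale, median log2 gaps in miR-28CT and miR-28BIO were 3.76 and 3.13 for H2A, 3.71 and 4.38 for H3, 3.18 and 2.65 for H4 and 1.64 and 1.64 for H1. For H2B they were 1.13 and 1.22. Under the same-total scaling they were 1.02 and 1.74 for H2A, 0.97 and 2.99 for H3, 0.45 and 1.26 for H4, -1.09 and 0.26 for H1 and -1.60 and -0.17 for H2B, so the H1 gap turned sign in miR-28CT and the H2B gap in both arms. The number is a label of the replicate, and what differed between the numbered libraries was not tested.

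On the reported scale, several H2B genes had small or reversed gaps. H2BC18, by its unspliced record, had 66.6 and 68.9 in miR-28CT and 40.6 and 40.4 in miR-28BIO, with a difference of -0.74 (SE 0.46) and arms that did not overlap. Under the same-total scaling it had 104 and 16.2 against 111 and 41.9, a difference of 0.73 with overlap. Of its 50-base words, 35.9% are shared with other members. H2BC14 had 24.8 and 7.07 against 9.48 and 6.37, and was lower in the libraries numbered 2. The spliced record of H2BC5, which does not end at the stem-loop, was listed at 10.1 and 0 in miR-28CT and at 15.7 and 0 in miR-28BIO, while the unspliced record of the same gene was 3.86 and 4.92 times higher in the libraries numbered 2. The 2 records share their coding sequence, so the split of reads between them is an estimate of the quantification. The other tested records that do not end at the stem-loop were H2BC12, at 76.0 and 152 against 46.3 and 82.4, and H2BC21, at 29.2 and 70.1 against 22.7 and 51.0, with log2 gaps between 0.83 and 1.26.

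**Figure D5:**
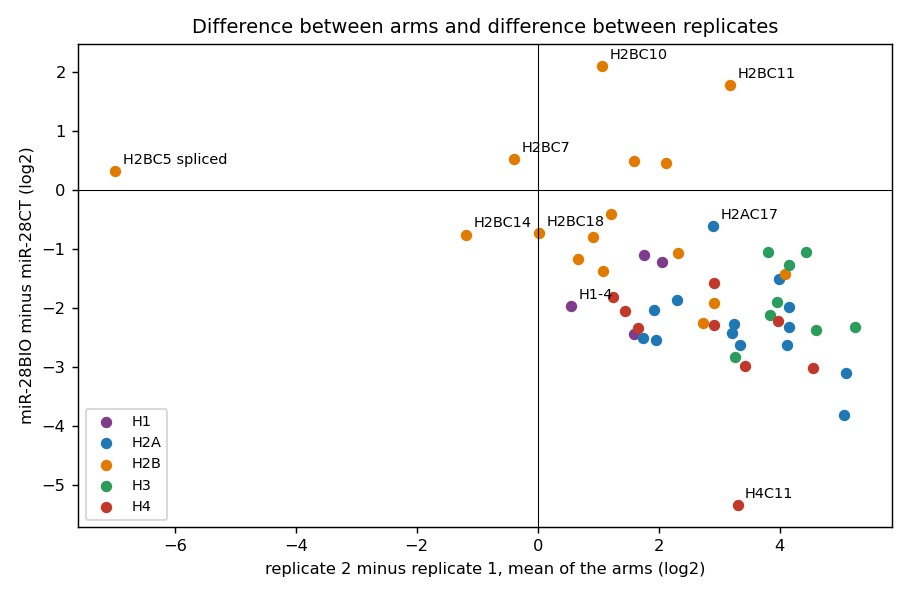
Difference between arms (vertical, log2) against the difference between libraries numbered 2 and 1 (horizontal, log2, mean of both arms) for the 51 tested members, coloured by family. H2A, H3 and H4 records fill the lower right. H2B records spread from the spliced record of H2BC5 at far left, through H2BC14 and H2BC18 near or below 0, to H2BC11 at upper right.

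Histone genes that are made outside S phase, and whose mRNAs are polyadenylated for the most part, had a median above that of the members on both scalings. Of 12 such genes with a record in the files, 11 passed the filter. Their median difference was -0.23 (1.22 under the same-total scaling, against -0.45 for the members). In both numbers 6 were lower and 2 higher, beside 30.5% and 24.2% of all tested transcripts, and 0 were called by limma. Under the same-total scaling 0 were lower and 10 higher in both numbers, beside 2.98% and 61% of all. The symbols H2BU1 and H2AW belong in the current table to the members H2BC26 and H2AC25, and H2BC12L was not matched. H2AZ1, the H2A.Z variant of active promoters, had 67.5 and 209 against 46.4 and 135. H3-3B, which encodes H3.3, had 36.9 and 44.1 against 41.8 and 47.4. MACROH2A1 had 24.6 and 26.9 against 17.7 and 16.1. H2AZ2 had 13.6 and 11.3 against 15.1 and 14.5. H2AX had the lowest difference of the list, -2.32, with 13.6 and 145 against 2.20 and 34.7. On the reported scale, the median log2 gaps of the list between numbers were 1.52 and 1.17 in miR-28CT and miR-28BIO. On that scale 6 of the 11, H2AZ1 and H2AX among them, were at least 2-fold higher in number 2 in both arms (18.7% of all tested transcripts). Under the same-total scaling the gaps were -1.17 and -0.20, and 0 of the 11 were at least 2-fold higher (5.49% of all). The mRNA of H2AX is known to exist in both a stem-loop form and a polyadenylated form.

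Genes for making and processing histone mRNA also had a median above that of the members. Of 26 on the list, 25 passed, with a median difference of -0.19 (1.26 under the same-total scaling), 10 lower and 5 higher in both numbers and 0 called. Under the same-total scaling 1 was lower and 19 higher in both numbers, to be read beside the shares of all tested transcripts given above. Single differences ran from -7.07 for LSM1, listed at 0 in both miR-28BIO libraries, to 2.63 for MIF4GD, listed at 0 in miR-28CT replicate 2. SLBP had 17.7 and 17.9 against 16.7 and 14.4. CPSF3, the endonuclease of the cut, had 13.8 and 9.29 against 24.2 and 14.9, and CPSF2, its partner, had 10.1 and 6.57 against 14.1 and 9.15. The cap-binding NCBP1 had 12.4 and 8.44 against 11.4 and 5.50, the scaffold SYMPK 4.88 and 9.40 against 9.46 and 9.94, and ERI1, an exonuclease that trims the histone 3′ end, 9.13 and 6.27 against 10.5 and 7.14. Of 20 S phase genes, 19 passed, with a median difference of -0.24 (1.16 under the same-total scaling), 11 lower and 3 higher in both numbers and 0 called. Under the same-total scaling 0 of them were lower and 15 higher in both numbers. Median gaps between numbers were -0.55 and -0.62 for the processing genes and -0.41 and -0.43 for the S phase genes in miR-28CT and miR-28BIO, against 2.73 and 2.70 for the tested histone records, all on the reported scale.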

How the data were processed

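RNA from miR-28-5p pull outs of DU-145 cells was sequenced in 4 libraries, 2 miR-28CT and 2 miR-28BIO, grouped by sample title. The authors prepared stranded total RNA libraries, read 50 bases single-end and, by the submitters' processing notes, used FastQC 0.10.1, cutadapt, TopHat2 2.0.9, Cufflinks 2.1.1 and Cuffdiff with hg38. The FPKM and coverage columns are as deposited by the authors, normalised by Cufflinks for transcript length and library size. Whether strand was used in quantification is not given in the sources used here. Coverage times length over 50 gave 5.46e+06 to 7.43e+06 read equivalents per library. The files hold no counts, so counting intervals were not given.

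RefSeq identifiers were matched to symbols for 98.4% of tested transcripts. FPKM were divided by median-of-ratios factors (1.06, 0.85, 1.06 and 1.09 for miR-28CT 1 and 2 and miR-28BIO 1 and 2), log2-transformed with a pseudocount of 0.1, and fitted with limma 3.58.1 (R 4.3.3, trended eBayes) without a block, Benjamini-Hochberg adjusted over 15587 transcripts with a mean of at least 0.5. The fit was tested on simulated data.

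Members and gene lists were chosen with earlier results of these data known. Named genes were the 3 highest of each family, the 5 largest and 5 smallest differences, members of the study's captured list, and the 6 highest of each companion list, some of which are not reported here. H1-3, H2AC17, H2BC8, H2BC12, H2BC14, H2BC18, H2BC21 and H4C12 were added after their values were seen. Alternatives covered pseudocount, filter, scaling, status, gene sums, trend, block and each library left out. Centring within 7 length classes was chosen after seeing the data. Stem-loops, motifs and shared 50-base words were searched in hg38 and RefSeq windows. The starts of a divergent pair were at most 500 bases apart.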

Additional observations from a re-analysis of the deposited data

How the results depend on the processing

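Across 15 alternatives, 23 named histone records kept the sign of their reported difference in 334 of 345 values, and the exceptions were H1-2, H2BC4, H2BC5, H2BC13, H3C2 and H3C13, under the same-total scaling or with 1 library left out. Changes of filter, status, gene sums, trend or block leave the difference of a single record the same or nearly so by construction, so their part of this tally is no test of the sign. Records added after their values were seen are outside it. Of these, H1-3, H2AC17, H2BC8, H2BC12, H2BC14, H2BC18 and H2BC21 turned from below to above 0 under the same-total scaling, and H4C12 stayed below. With every library scaled to the same FPKM total, 10 transcripts were called, none of them a histone record, both miR-28BIO lay above both miR-28CT for 8 histone records (22.6% of all tested transcripts) and below for 8 (1.67%), and the family medians were 0.24 (H1, with H1-6 included), 0.69 (H2B) and -0.82 (H4). That scaling moved library medians by 0.65 and -2.09 (miR-28CT 1 and 2) and by 1.45 and 0.05 (miR-28BIO 1 and 2) on the log2 scale, and the cause of the changed values beyond that shift was not tested. FPKM summed per gene symbol gave 3 called genes and 0 histone genes. Centring within length classes, chosen after seeing the data, gave 4 histone records with both miR-28BIO above both miR-28CT (13.2% of all), 10 below (12.1%) and an H2B median of 0.12. Leaving out 1 library at a time, the count with both miR-28BIO below both miR-28CT ranged from 13 to 44 (24.9% to 36.6% of all) and the count above from 2 to 6 (24.5% to 31.2%), since an arm of 1 library separates more often by construction. The H4 median ranged from -4.11 to -0.91, and the H2B median from -0.87 to 0.06; with 1 library in an arm, that library was assumed to vary like the others. The labels do not say what same-numbered libraries share, and their deviations from the arm means had a correlation of 0.422 over all tested transcripts and 0.842 over the histone records. With the replicate block, 0 transcripts were called, 1872 (12% of all) and 40 of the 51 histone records had an unadjusted p under 0.05, and the median difference was -1.92. In all other alternatives the counts above, below and called stayed within 1.5 times of those reported, and the medians within the spread between replicates. The count of histone records with an unadjusted p under 0.05, reported as 1, was 0 to 3 under every alternative but the block. Depth limits the low records, such as H4C11 with 33 read equivalents in miR-28CT replicate 1 and 0 in miR-28BIO replicate 1.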
